A study of Saccharomyces cerevisiae with 4 samples.

Results

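The genes described here make and break down trehalose in Saccharomyces cerevisiae (budding yeast). There are 7 of them: the synthase complex genes TPS1, TPS2, TPS3 and TSL1, and the trehalase genes NTH1, NTH2 and ATH1. They were matched by systematic name in the authors' deposited table of high-confidence 5-formylcytidine (f5C) sites in mRNA. Its sites had been selected on the mutated fractions of the same treated and input libraries, and the genes were chosen with those values known. The table held 11 sites in 6 of these genes, out of 1892 sites. Rows given to a single gene covered 1253 genes, and 3 of the 1892 sites were given to 2 genes each.

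Treated and input libraries were made from poly(A)+ RNA of cells grown overnight at 28 °C in rich medium with glucose, with replicates 1 and 2 of each. The treated libraries came from mRNA fragments kept in 0.9 M pyridine borane for 24 h at 37 °C and pH 5.2, and the input libraries from RNA without this treatment. Pyridine borane turns f5C into dihydrouridine, and this base is copied as if it were U, so that a modified cytidine appears as a mutated base in treated RNA. The labels name no strain or genotype, describe 1 picked colony, and do not say whether the numbers 1 and 2 are separate cultures, so the spread between libraries, given as SD, may be technical.

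Trehalose is a disaccharide of glucose that yeast stores as a reserve and stress protectant, most of all when glucose runs out. Tps1 joins UDP-glucose and glucose 6-phosphate to trehalose 6-phosphate, and Tps2 removes the phosphate. Tps3 and Tsl1 are regulatory subunits of the same complex and paralogs of each other. Nth1 is the main neutral trehalase of the cytosol, Nth2 is its paralog, and Ath1 is an acid trehalase that acts on trehalose outside the cytosol.

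All 3 trehalase genes and 3 of the 4 synthase genes had a listed site. TPS1, the gene of the subunit that makes trehalose 6-phosphate, had 0 sites in the table, and its coverage was not analysed here. Sites were 1 in TPS2, 2 in TPS3, 2 in TSL1, 1 in NTH1, 3 in NTH2 and 2 in ATH1. Among all nuclear protein-coding genes 1251 of 6002 had a site (20.8%). Because of how the genes were chosen, nothing is read from their 6 of 7.

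The level of a site is the percentage of covering reads that were mutated, and the difference is the treated level minus the input level of the same replicate number, in percentage points. The sites were listed on this contrast, so levels and differences are given as descriptions, without a test. A level is a share of reads from many cells, so complete modification of few molecules and incomplete conversion of more molecules cannot be told apart. Input RNA was not treated, so any mutation that the treatment makes at unmodified cytidines would stay in the difference. That share was not measured here. Sites within a gene are numbered from its 5′ end. Positions are those of the deposited table, and no source used here names its genome build.

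In the synthase complex every site lay below 9% in the mean of both replicates. The TPS2 site (YDR074W, chromosome IV, position 594028, plus strand) had 164 mutated of 1979 reads (8.29%) in treated replicate 1 and 114 of 1356 (8.41%) in treated replicate 2. Its input libraries had 1 mutated read each, at 1791 and 1529 reads. The treated replicates of TPS2 were thus close to each other, and the difference from input was 8.29 ± 0.0781 points (SD, n = 2).

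TPS3 carried the lowest site of these genes. TPS3 site 1 (YMR261C, chromosome XIII, position 792297, minus strand) had 41 of 542 reads (7.56%) and 25 of 318 reads (7.86%) mutated in treated replicates 1 and 2. Only 58 of the 1892 listed sites had a lower mean level. TPS3 site 2 (position 791005) had 44 of 516 reads (8.53%) and 30 of 378 reads (7.94%) mutated after treatment. At both sites 0 input reads were mutated, so the input share could be as high as 0.354% at site 1 and 0.353% at site 2 over the summed reads. The differences were 7.71 ± 0.210 and 8.23 ± 0.418 points (SD, n = 2), and in replicate 2 the 2 sites were nearly level.

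TSL1, the other regulatory subunit, had the deepest sites in the treated libraries. TSL1 site 1 (YML100W, chromosome XIII, position 70639, plus strand) had 185 of 2138 reads (8.65%) and 121 of 1464 reads (8.27%) mutated in treated replicates 1 and 2, against 1 and 0 reads in input replicates 1 and 2. TSL1 site 2 (position 71779) had 242 of 2862 reads (8.46%) and 183 of 1965 reads (9.31%) mutated after treatment, against 2 and 3 reads in input. Site 1 was the higher one in replicate 1 and the lower one in replicate 2, so the order of the 2 sites was not the same in both replicates. Their differences from input were 8.43 ± 0.238 and 8.77 ± 0.563 points (SD, n = 2).

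Among the trehalases, NTH1 had 1 site and the smallest spread between replicates of the difference among all 11 sites. The NTH1 site (YDR001C, chromosome IV, position 450526, minus strand) had 70 of 857 reads (8.17%) and 52 of 644 reads (8.07%) mutated in treated replicates 1 and 2. Input held 0 mutated reads, which allows up to 0.217%, and the difference was 8.12 ± 0.0661 points (SD, n = 2).

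NTH2 held more sites than any other of these genes, and its middle site was the highest of the 11. NTH2 site 2 (YBR001C, chromosome II, position 239976, minus strand) had 29 of 266 reads (10.9%) and 17 of 161 reads (10.6%) mutated in treated replicates 1 and 2, a difference of 10.7 ± 0.243 points (SD, n = 2). It was the only one of the 11 with a mean level of 10% or more. NTH2 site 1 (position 240111) had 22 of 253 reads (8.70%) and 20 of 200 reads (10%) mutated after treatment, a difference of 9.35 ± 0.922 points. NTH2 site 3 (position 239138) had 40 of 462 reads (8.66%) and 25 of 290 reads (8.62%) mutated after treatment, a difference of 8.45 ± 0.294 points. Input had 0 mutated reads at sites 1 and 2, with limits of 0.694% and 0.726%, and 1 mutated read in replicate 2 at site 3. The order was site 2, site 1, site 3 in both replicates, although sites 1 and 3 were nearly equal in replicate 1.

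ATH1, the acid trehalase gene, had 2 shallow sites of nearly equal level. ATH1 site 1 (YPR026W, chromosome XVI, position 616212, plus strand) had 20 of 260 reads (7.69%) and 17 of 192 reads (8.85%) mutated in treated replicates 1 and 2. ATH1 site 2 (position 616685) had 21 of 262 reads (8.02%) and 18 of 210 reads (8.57%) mutated after treatment. Both sites were higher in replicate 2, and input had 0 mutated reads, with limits of 0.804% and 0.670%. The differences were 8.27 ± 0.822 and 8.29 ± 0.393 points (SD, n = 2).

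**Figure D1:**
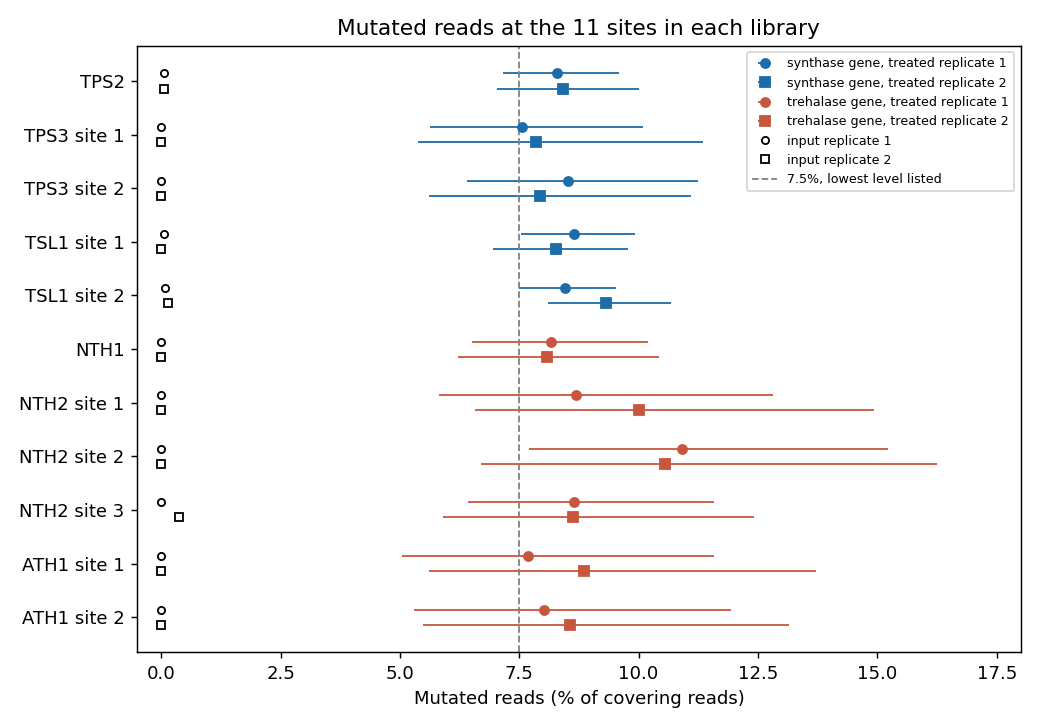
Percentage of mutated reads at each of the 11 sites (x axis) in treated replicates 1 and 2 (filled, with Wilson 95% intervals) and in the input libraries (open); synthase genes are blue and trehalase genes red. Every treated point lies at or right of 7.56%, and no input point exceeds 0.379%.

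Counting error was wider than most of the gaps between sites. For the reads of both replicates together, the Wilson 95% interval ran from 8.17% to 14.1% at NTH2 site 2, the highest site, and 6.08% to 9.65% at TPS3 site 1, the lowest. The interval at the TPS2 site was 7.44% to 9.32%. All 11 intervals shared the span from 8.17% to 9.32%. The lower bound lay above 7.5%, the lowest treated level that the table holds, at 3 sites, namely NTH2 site 2 and both TSL1 sites. Over the other 1881 listed sites this was so for 46.5%. These intervals cover counting error only. The labels mention no molecular identifiers, so reads may repeat the same molecule and the intervals may be too narrow.

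The treated replicates were compared at each site by Fisher's exact test (two-sided) of mutated against unmutated reads, with Benjamini-Hochberg adjustment over all 1892 sites. After adjustment 0 of the 11 sites differed between replicates (background 0%), and at an unadjusted p of 0.05 it was also 0 of 11 (background 2.75%, 52 of 1892 sites). The smallest unadjusted p of the 11 was 0.302, at TSL1 site 2 (exact test, adjusted p = 1). The median absolute difference between treated replicates was 0.388 points at the 11 sites and 0.877 points at the other listed sites. With 1000 reads or more in all 4 libraries it was 0.388 points at 3 sites of these genes and 0.467 points at 334 others. Replicate 2 was higher at 6 of the 11 sites and lower at 5. Sites that passed in 1 replicate only are not in the table, so these values hold for selected sites.

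The table has no statement of how sites passed, and the entry conditions were worked out from its values. No listed site had a treated level under 7.5%, a treated-over-input ratio under 20.2 or a q-value above 0.00993. The authors' p-values solved to a binomial rate of 1.83% in replicate 1 and 1.81% in replicate 2. From these rates, and with a q-value under 0.01 and a ratio of at least 20 taken as the conditions, the smallest number of mutated reads that would have listed each site was computed. No listed site fell below that number, but the conditions came from the values of these same sites, so this is no check of them.

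ATH1 sat at this limit. ATH1 site 1 had exactly the 20 and 17 mutated reads it needed in treated replicates 1 and 2. ATH1 site 2 had 1 read more than the 20 needed in replicate 1 and exactly the 18 needed in replicate 2. In the authors' deposited table the q-values of ATH1 site 1 were 0.00412 and 0.00330 in replicates 1 and 2, the largest among the 11 sites.

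TPS3 was also close. TPS3 site 1 had the 41 reads it needed in replicate 1 and 1 read more than needed in replicate 2. TPS3 site 2 had 5 reads more than needed in replicate 1 and 1 more in replicate 2. In all, 4 of the 11 sites (36.4%) were within 1 read of the limit in at least 1 replicate, against 38.4% of all listed sites. In number of reads TSL1 site 2 was farthest above the limit, with 27 and 35 spare reads in replicates 1 and 2. TSL1 site 1 had 24 and 11 spare reads and TPS2 15 and 12, so their order differed between replicates. At a given level the number of spare reads grows with coverage, and these are the deepest of the 11 sites.

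The level needed was not the same for every gene. For TPS2, TSL1, NTH1 and TPS3 it was between 7.51% and 7.67%. At NTH2 site 2 the 161 reads of treated replicate 2 needed 15 mutated reads, or 9.32%, and 17 were seen. At NTH2 site 1 replicate 2 needed 8.50%, and ATH1 sites 1 and 2 needed 8.85% and 8.57% in that replicate. The 3 sites of the list of 11 with the highest mean levels were thus NTH2 sites 2 and 1, which needed more than most in replicate 2, and TSL1 site 2, which needed 7.51% and 7.53% in replicates 1 and 2. In replicate 1, where NTH2 site 2 needed 7.52%, its level was 10.9%.

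**Figure D2:**
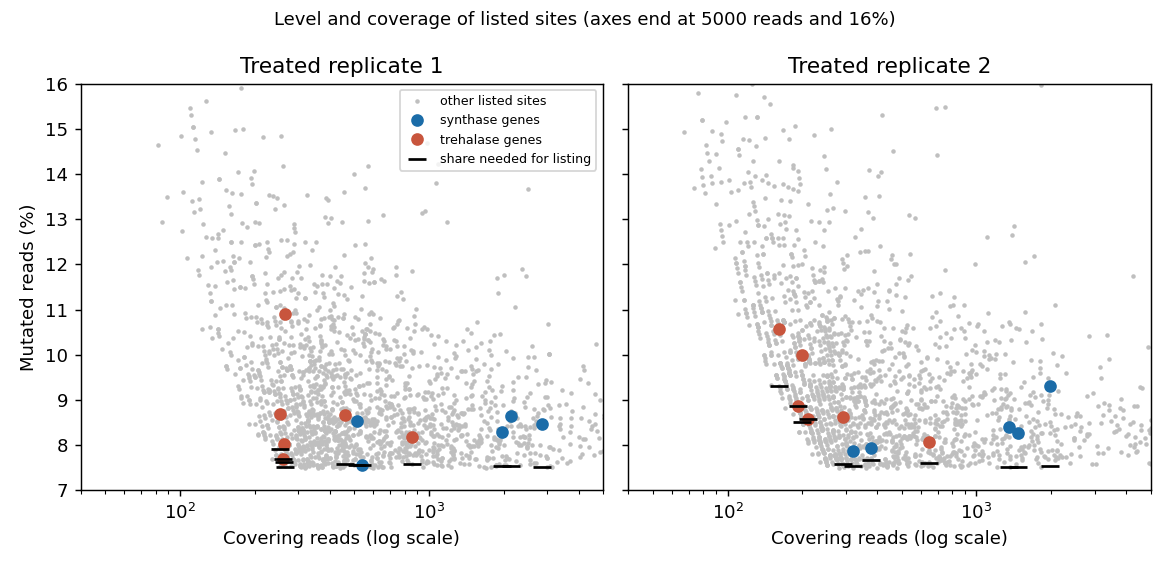
Treated level (%) against covering reads (log scale) for listed sites in replicates 1 and 2; grey points are other sites, coloured points are synthase (blue) and trehalase (red) sites, and black bars mark the share that each of the 11 sites needed to be listed. Both ATH1 sites lie on their bars in replicate 2, and the TSL1 and TPS2 sites lie above theirs in both.

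Synthase subunits and trehalases were similar in level and unlike in coverage. The authors' selection removed low levels, and over all listed sites the quartiles of the mean treated level were 8.35% and 10.1%. Close medians are thus likely for many sets of listed genes, and nothing is read from the similarity in level. Over the 5 synthase sites the difference from input had a median of 8.29 points (range 7.71 to 8.77), and over the 6 trehalase sites a median of 8.37 points (range 8.12 to 10.7). The difference of these medians, synthase minus trehalase, was -0.0852 points, with -0.0401 and -0.448 points in replicates 1 and 2, so it was smaller than the spread of 0.288 points (SD, n = 2). The sign was positive without TPS3 (0.0619 points) and without NTH2 (0.0132 points), and the size was -0.612 points without ATH1. The difference of means was -0.582 points, and the trehalase mean includes the high NTH2 sites 1 and 2. The classes also had unlike lower limits in replicate 2. There every synthase site needed between 7.51% and 7.67% to be listed. NTH2 sites 1 and 2 and both ATH1 sites needed between 8.50% and 9.32%, while NTH1 and NTH2 site 3 needed 7.61% and 7.59%.

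With reads summed over sites and replicates, 1149 of 13518 treated reads were mutated at synthase sites (8.50%, Wilson 95% interval 8.04% to 8.98%). At trehalase sites it was 351 of 4057 (8.65%, interval 7.83% to 9.56%), and the intervals overlap over most of their length. In input 8 of 12997 reads were mutated at synthase sites (0.0616%) and 1 of 3687 at trehalase sites (0.0271%).

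Per gene, the mean difference was highest in NTH2, with 9.42 and 9.60 points in replicates 1 and 2. TSL1 followed with 8.49 and 8.72 points, TPS2 with 8.23 and 8.34, ATH1 with 7.85 and 8.71, NTH1 with 8.17 and 8.07, and TPS3 with 8.05 and 7.90. The range of the 2 replicate values of ATH1 overlapped those of TSL1, TPS2, NTH1 and TPS3. With 2 replicates, and no share over all listed genes computed, nothing is read from values that do not overlap. By counting error NTH2 and TSL1 were not apart. Their Wilson 95% intervals over summed reads were 8.05% to 10.9% in NTH2 and 8.09% to 9.29% in TSL1.

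In mean treated level the paralogs stood in opposite order in the 2 classes of genes, though their intervals overlapped. In the regulatory subunits the deeper paralog, TSL1, had the higher mean treated level, 8.67% against 7.97% in TPS3. In the neutral trehalases the shallower paralog, NTH2, had the higher one, 9.57% against 8.12% in NTH1. The intervals of each pair overlapped, with 6.80% to 9.34% in TPS3 and 6.85% to 9.62% in NTH1. In replicate 2, NTH2 sites 1 and 2 needed 8.50% and 9.32% to be listed and the NTH1 site 7.61%, so the neutral trehalases had unlike lower limits. Whether paralogs shared reads was not tested.

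Among these listed sites coverage separated the genes far more than the level did. Over all listed sites the quartiles of the mean treated level were 8.35% and 10.1%, after a selection that removed low levels. The quartiles of coverage were 303 and 1047.25 reads in treated replicate 1. Whether the genes would be as close in level without that selection was not tested. At TSL1 sites coverage averaged 2500 and 1714.5 reads in treated replicates 1 and 2. At the TPS2 site it was 1979 and 1356, and at the NTH1 site 857 and 644. TPS3 sites averaged 529 and 348 reads, NTH2 sites 327 and 217, and ATH1 sites 261 and 201. The order was the same in the input libraries, where TSL1 averaged 2190.5 and 1799 reads, TPS2 had 1791 and 1529, NTH1 779 and 603, TPS3 465 and 384, NTH2 278.3 and 216.3, and ATH1 238.5 and 172.

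The median coverage per site in treated replicate 1 was 1979 reads in the synthase genes and 264 in the trehalases, and 469 over the other listed sites. The 2 classes overlapped, since the NTH1 site was covered more deeply than both TPS3 sites in all 4 libraries. Coverage was read at listed positions only, so it does not stand for the whole transcript. More transcripts per cell and more cells with the transcript cannot be told apart in it.

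**Figure D3:**
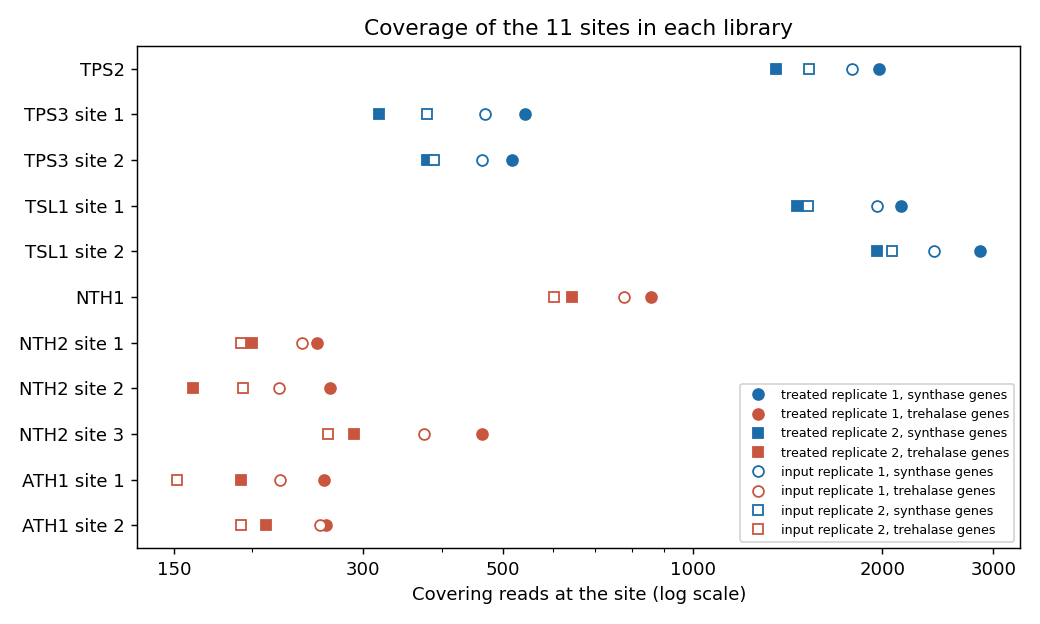
Covering reads (log scale) at each of the 11 sites in treated (filled) and input (open) libraries, replicate 1 as circles and replicate 2 as squares. TSL1 and TPS2 sites have at least 1356 reads in every library, while ATH1 sites lie between 152 and 262.

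The relative coverage of treated and input libraries at these sites was near that of the list. The ratio of treated to input coverage was between 1.02 and 1.23 in replicate 1, with a median of 1.12 against 1.14 over the other listed sites. In replicate 2 it was between 0.834 and 1.26, with a median of 0.972 against 0.973. The lowest ratio was at NTH2 site 2 (161 treated and 193 input reads) and the highest at ATH1 site 1 (192 treated and 152 input reads), both in replicate 2.

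Set against the list, the 11 sites were on the low side in level. Their median difference from input was 8.29 points, against 8.97 points over the other listed sites, and in treated level 9 of the 11 lay below the median of the whole list. The exceptions were NTH2 sites 1 and 2, which had higher levels than 1134 and 1583 of the 1892 sites. The authors' selection removed all levels under 7.5%, so the list's own lower end is a limit of selection.

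Among deeply covered sites this gap was smaller. A coverage of 1000 reads or more in all 4 libraries was reached by 337 sites, and 3 of them belonged to these genes, the TPS2 site and both TSL1 sites. Their median difference from input was 8.43 points, against 8.45 points over the other 334, and their median level 8.46% against 8.49%. The shallower sites of these genes were not compared with sites of like coverage. Within the 337 the TPS2 site was at percentile 41.5, TSL1 site 1 at 48.1 and TSL1 site 2 at 72.4. TSL1 site 2 was thus above the middle of these deep sites, although it was at percentile 45.7 of the whole list.

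Listed sites in one transcript were between 135 and 1292 nt apart. Along the gene's strand the 2 sites of TPS3 were 1292 nt apart, those of TSL1 1140 nt and those of ATH1 473 nt. NTH2 site 1 and site 2 were 135 nt apart, and site 2 and site 3 838 nt. The median of these 5 gaps was 838 nt, against 307 nt over the 631 gaps in other genes with several sites. The NTH2 gap of 135 nt was shorter than that median, and the other 4 were longer. None of the 5 was under 100 nt, against 25.2% of the other gaps, and with 5 gaps nothing is read from this. The gap of 135 nt in NTH2 and that of 1140 nt in TSL1 are multiples of 3, as were 33.8% of the gaps in other genes. Whether these sites lie in coding sequence was not analysed here.

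**Figure D4:**
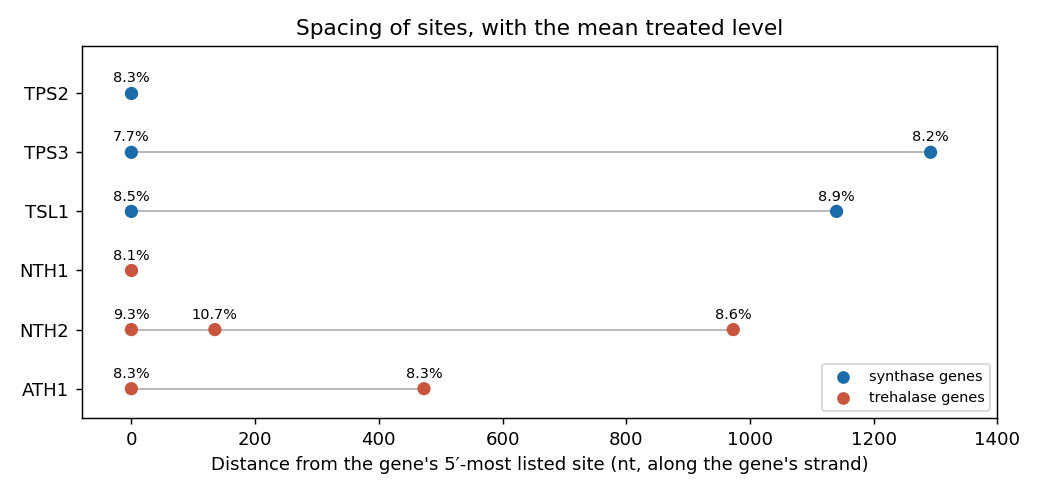
Distance in nt of each listed site from the 5′-most listed site of its gene, along the gene's strand, with the mean treated level of the site above its point; synthase genes are blue and trehalase genes red. The closest pair is NTH2 sites 1 and 2, 135 nt apart, which also have the highest levels.

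Genes around the pathway were looked up in 2 lists chosen with earlier results of these data known. The first held the enzymes that supply glucose 6-phosphate and UDP-glucose and a sugar transporter. All 7 of its genes had a site, against a background of 20.8% of nuclear genes. They are the hexokinase and glucokinase genes HXK1, HXK2 and GLK1, the phosphoglucomutase genes PGM1 and PGM2, UGP1, which encodes UDP-glucose pyrophosphorylase, and MAL11, an alpha-glucoside transporter that also takes up trehalose. The median difference from input was 8.29 points over the 11 sites of trehalose genes and 8.47 points over the 10 sites of this list.

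UGP1, whose product makes a substrate of Tps1, had 2 sites with differences of 8.03 ± 0.342 and 8.96 ± 0.607 points (SD, n = 2) at 4875 and 4405 reads in treated replicate 1. GLK1 had 3 sites, and the highest of them reached 10.9 ± 0.114 points at 13978 reads in treated replicate 1. This was close to NTH2 site 2 in size, at a coverage where counting error is small. PGM1 and MAL11 had 10.3 ± 0.571 and 10.4 ± 0.287 points, at 225 and 274 reads in treated replicate 1. PGM2, the major phosphoglucomutase, had 7.85 ± 0.225 points and HXK2 7.84 ± 0.171 points.

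The second list held regulators, and 4 of its 9 genes (44.4%) had a site, against the background of 20.8%. With genes chosen as described, nothing is read from either list's count. Protein kinase A activates Nth1 by phosphorylation, with 14-3-3 proteins binding the phosphorylated enzyme. Of the kinase's genes, TPK2 had 1 site with a difference of 10.2 points and BCY1, the regulatory subunit, had 2 with 8.03 and 7.63 points. BMH2, a 14-3-3 gene, had 3 sites between 8.06 and 8.87 points. MSN4, a transcription factor of the general stress response, had 2 with 8.87 and 9.13 points. TPK3, BMH1, MSN2, HSF1 and RIM15 had none. The median over the 8 sites was 8.52 points.

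**Figure D5:**
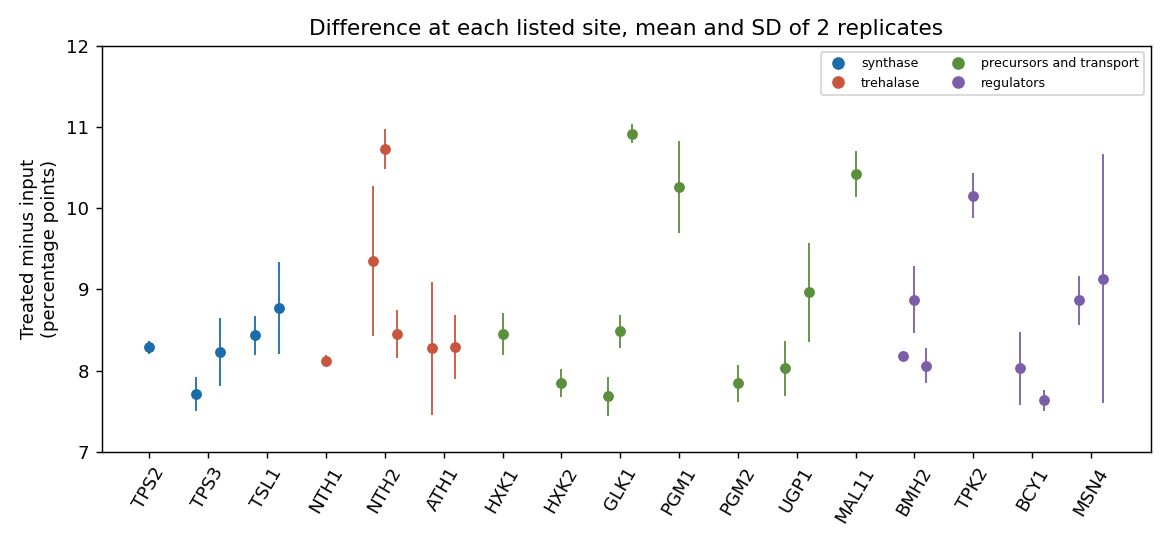
Treated minus input difference (percentage points) at each listed site of the trehalose genes and of pathway genes with a site; points are means and bars the SD of 2 replicates. NTH2 site 2 and GLK1 reach 10.7 and 10.9 points, and the sites of TPS2, TPS3, TSL1, NTH1 and ATH1 lie between 7.71 and 8.77 points.

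NTH2 is 1 of 91 genes that have 3 sites, and it was set against the others. By Euclidean distance between the mean mutated percentages in the 4 libraries, the nearest genes were MKT1 (0.195 points), HXT7 (0.309 points) and HSP78 (0.335 points). NTH2 averaged 9.42% and 9.73% in treated replicates 1 and 2, against 9.44% and 9.84% in MKT1, whose mean coverage of 317 and 218.7 reads was similar. HXT7, a hexose transporter with near-identical paralogs, averaged 9.62% and 9.75%. HSP78, a mitochondrial chaperone, averaged 9.63% and 9.93%.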

How the data were processed

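Covering and mutated reads are counts, per the file headers, at positions listed by the authors. The deposited fraction equals mutated over covering reads. The deposited fold column is a ratio of treated to input fraction per replicate, with a deposited p-value and q-value. Per the submitters' processing notes, cutadapt and STAR were used. No source used here gives their versions, the genome build or the site caller. Column names were matched to sample titles, which give group and replicate. Percentages, differences, Wilson 95% intervals and limits for 0 mutated reads (3 reads over the coverage) were computed from the counts. The Fisher exact test was tested on simulated data. Whole-library depth is unknown. The lowest coverage at any listed site was 43 reads. All 7 genes are named, with pathway genes that had a site; 1 item is not reported here. For NTH2, which has the most sites, the 3 nearest of the genes with equally many sites are named. Members, lists and tests were chosen with earlier results of these data known. Alternatives covered coverage, replicates, input subtraction and genes left out. Sequence context was not analysed here. Python 3.11.15, numpy 2.4.6, scipy 1.17.1, pandas 2.3.3 and matplotlib 3.10.9 were used.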

Additional observations from a re-analysis of the deposited data

How the results depend on the processing

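The median difference was 8.27 to 8.37 points at synthase sites, 8.41 to 8.71 points at trehalase sites and -0.448 to -0.0401 points between them when a replicate was left out. At 1000 reads or more in every library the synthase median was 8.43 points and no trehalase site remained, so the site count fell to 3. It was also 3 for Wilson intervals above 7.5%. The synthase minus trehalase value was -0.582 points by means and -0.612 points without ATH1. It turned positive by gene means (0.00314 points), without TPS3 (0.0619) and without NTH2 (0.0132). Input subtraction, summed reads and minimums of 50 or 100 reads moved these values by less than the replicate SD. The number of sites differing between treated replicates was 0, and 52 at an unadjusted p of 0.05. The odds ratio of a mutated read at the 11 sites, treated over input, was 173, and 175 with the replicate block. It was 142 without replicate 1 and 212 without replicate 2. The sites were listed on this contrast, so a large odds ratio was fixed in advance and nothing is read from it. It also rests on only 9 mutated input reads. The deposited fold, p-value and q-value set treated against input of the same replicate number. No label says whether same-numbered libraries come from the same culture. Deviations in log2 coverage of same-numbered libraries correlated at -0.00502 over 1892 sites. Deviations in mutated percentage correlated at 0.0540 over 451 sites. Such deviations include counting error, whose share was not measured, so the correlations cannot decide whether libraries share a culture. Sites per coding length, base context and codon position were not run, as they need a genome of the table's build.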
